A study of Homo sapiens with 4 samples.

Results

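The ERBB receptors EGFR, ERBB2, ERBB3 and ERBB4, and ERRFI1 and LRIG1, which act as brakes on these receptors, were examined in HuCCT1 cells. HuCCT1 cells come from a human intrahepatic cholangiocarcinoma, a cancer of the bile ducts inside the liver. Members were the non-control probes whose accession on the array design belongs to one of these genes, which gave 6 of the 19483 genes with a named probe, measured by 11 of 34127 probes. EGFR had 3 probes, ERBB3 had 3, ERBB4 had 2, and ERBB2, ERRFI1 and LRIG1 had 1 each. The rule itself uses no measured value, although the genes were chosen with earlier results of these data known. The study compared the mRNA profile after transfection with Pre-miR-376c, a mimic of the mature microRNA miR-376c-3p, or with siGRB2, an siRNA against the adaptor gene GRB2. Each of the 4 groups (each treatment and its own negative control, called Pre-miR negative control and siRNA negative control) was 1 sample on 1 array. All groups received 30 nM of the transfected RNA, then 24 h later EGF at 5 ng/ml, and were kept with it in 0.1% serum for 24 h. No array without EGF or without a transfection was analysed here. The siRNA is siGRB2 in the sample labels, whereas the study's text calls the one used on the arrays siGRB2-2.

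EGF binds EGFR, and the receptor then pairs with another EGFR or with a relative such as ERBB2, which has no known ligand of its own. ERBB3 binds neuregulins, has little kinase activity, and recruits PI3-kinase when a partner phosphorylates it. GRB2 binds phosphorylated receptors and connects them to SOS and RAS. ERRFI1 (also called MIG6) is a cytoplasmic inhibitor of the EGFR kinase that is itself induced by EGF signaling, and LRIG1 is a membrane protein that promotes the loss of ERBB receptors from the cell surface.

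The sequence of mature miR-376c-3p is shown because its mimic is the agent that separates the Pre-miR-376c array from its control. RefSeq (GRCh38.p14) places it at chr14:101039732-101039752 on the plus strand. The capitals mark its seed, bases 2 to 8.
hsa-miR-376c-3p: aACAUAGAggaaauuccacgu

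Levels are given as log2 signal relative to the array's 75th percentile, so that 0 is the 75th percentile of all non-control spots and -1 is 2-fold below it. Whether a probe was well above background was read from the flag that the scanner software gives each spot. Because each condition had 1 array there was no replicate and no test, and the number of arrays limited the precision of every value. For probes with 10 spots the SD between spots of the same array is given, which holds the noise within an array but no difference between cultures. For probes with 1 spot the only error is that of the scanner software, which came to 0.20 (log2) for a difference between bright spots. The arrays measured RNA of whole cultures, so fewer cells with a transcript and less of it per cell cannot be told apart.

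All 4 arrays shared 1 slide and 1 scan, and between 21811 and 24119 probes per array were well above background. The siRNA negative control array stood apart. Over the 21239 probes well above background on all 4 arrays, the log2 differences of the 3 pairs that include it had an SD of 0.54 to 0.58, and those of the other 3 pairs had an SD of 0.31 to 0.36. Each treated array is therefore also given against the other negative control. GRB2, measured by 1 spot, had levels of 0.62 with Pre-miR negative control, 0.07 with Pre-miR-376c, -0.10 with siRNA negative control and -0.65 with siGRB2. It was lower on each treated array than on its own control. Of 8 biliary epithelial marker genes listed, 7 had a probe well above background on all 4 arrays, and only SPP1 had none. KRT7 and KRT19, keratins of bile duct cells, lay between 7.65 and 8.49 over the arrays. Of 6 hepatocyte markers, ALB, APOB, HNF4A and TTR were well above background on no array, while 1 of the APOA1 probes was on all 4 (-4.32 to -3.77) and CYP3A4 on 2. Of 5 fibroblast markers, COL1A2, COL3A1 and PDGFRB were on no array, while COL1A1 (-3.41 to -2.20) and LUM (-3.89 to -3.20) were on all 4. COL1A1 differed by -1.01 between Pre-miR-376c and its control and by 0.59 between siGRB2 and its control, and its part in the results was not tested. Every leukocyte and endothelial marker had a probe above background somewhere, with levels of at most -1.85 for the former and -2.33 for the latter.

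EGFR was expressed on every array and the signal of its 10-spot probe was highest with Pre-miR negative control and lowest with siGRB2. This probe (A_23_P215790) carries the accession of the full-length receptor, NM_005228, and was printed as 10 spots. Its level was 1.70 with Pre-miR negative control, 1.53 with Pre-miR-376c, 1.39 with siRNA negative control and 1.25 with siGRB2. The SD between spots was 0.018 to 0.026 over 9 or 10 spots per array, and the spots of no array overlapped those of another. The difference from the own control was -0.17 with Pre-miR-376c (89.0% of control) and -0.13 with siGRB2 (91.2%), with standard errors between spots of 0.011 and 0.0086. With Pre-miR-376c the sign depended on the control. Against the other negative control the difference was 0.14 for Pre-miR-376c but -0.44 for siGRB2, and the negative controls themselves differed by -0.31. All these differences exceeded the error between spots. Those of -0.17, -0.13 and 0.14 were smaller in size than their scanner error of 0.20. The differences from the own control were small beside the spread of all probes in the same pair. Of the probes well above background on all arrays, 57.2% differed by at least as much for Pre-miR-376c, and 82.6% for siGRB2.

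The other EGFR probes carry accessions of transcripts for shortened, soluble forms of the receptor that lack the kinase. Whether they also detect the full-length transcript was not tested, since no probe sequence was used here. The NM_201283 probe (A_33_P3351944, 1 spot) was lower on both treated arrays than on either control, as were 13.6% of all probes well above background throughout. It had levels of -0.06 with Pre-miR negative control and -0.10 with siRNA negative control, against -0.52 for the Pre-miR-376c array and -0.62 for the siGRB2 array. Its 4 differences between a treated and a control array lay between -0.55 and -0.43, and the controls differed by -0.03. The NM_201282 probe (A_33_P3351955, 1 spot) had levels of -2.87 with Pre-miR negative control, -3.35 with Pre-miR-376c, -4.04 with siRNA negative control and -3.17 with siGRB2. The siRNA negative control array alone was far below the rest. The difference with siGRB2 was therefore 0.87 from its own control and -0.30 from Pre-miR negative control. For Pre-miR-376c it was -0.49 from its own control and 0.69 from siRNA negative control, so the sign turned with the control for both treatments. Between the negative controls this probe differed by -1.17, to 44.3%, the largest difference of any EGFR probe between these arrays.

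ERBB2 was highest on the siRNA negative control array and differed little among the other 3. Its probe (A_23_P89249, accession NM_001005862, 10 spots) had levels of 1.46 with Pre-miR negative control, 1.35 with Pre-miR-376c, 1.86 with siRNA negative control and 1.5 with siGRB2. The SD between spots was 0.047 to 0.056, and every spot of the siRNA negative control array was brighter than every spot of the other arrays, whose spots overlapped. From the own control the difference was -0.11 for Pre-miR-376c, but -0.36 for siGRB2 (SE between spots 0.023 for both). The scanner error was 0.20 for both, larger than the size of the former. Of the probes well above background on all arrays, 71.7% and 55.1% differed by at least as much. From Pre-miR negative control the siGRB2 array differed by 0.04. With arrays scaled on their medians, the first of these differences became 0.0074.

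ERBB3 held the only difference of at least 2-fold among the members in the comparison of siGRB2 with its control (1 of 8 tested, where 9.81% of all probes tested passed), and its probes disagreed. The NM_001982 probe A_23_P349416 (1 spot) had levels of 0.87 with Pre-miR negative control, 0.94 with Pre-miR-376c, -0.09 with siRNA negative control and 0.94 with siGRB2. Again only the siRNA negative control array stood low. The difference with siGRB2 was 1.03 from its own control, a 2.04-fold higher signal, and 0.07 from Pre-miR negative control. Scaling on medians gave 0.74 for the former and the deposited log2 values gave 0.95, both short of the limit. With Pre-miR-376c the difference was 0.07 from its own control and 1.02 from siRNA negative control. The negative controls differed by -0.96.

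The probe of NM_001005915 (A_33_P3211569, 1 spot), a transcript for a short secreted form of ERBB3, did not show this step. Its levels were -0.23 with Pre-miR negative control, -0.78 with Pre-miR-376c, -0.63 with siRNA negative control and -0.69 with siGRB2. The Pre-miR negative control array was the highest and the other arrays were close together. From its own control it differed by -0.54 with Pre-miR-376c (68.6% of control) and by -0.06 with siGRB2. Against the other control the order of the treatments was the opposite, -0.15 for Pre-miR-376c and -0.45 for siGRB2.  The other NM_001982 probe (A_33_P3280471, 1 spot) was well above background only with Pre-miR negative control, at -5.64. Compared with that array, its signal was lower by at least 1.53-fold with Pre-miR-376c and by at least 1.55-fold with siGRB2, bounds that use, for the dim array, its lowest signal well above background where that exceeds the probe's own.

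ERBB4 was not well above background with any of its probes on any array. Both probes carry the accession NM_005235. The levels of A_32_P183765 were -7.97 with Pre-miR negative control, -7.86 with Pre-miR-376c, -8.13 with siRNA negative control and -7.07 with siGRB2, and those of A_33_P3211558 lay between -9.09 and -8.43. No fold change can be given for these signals.

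Both receptor brakes were lower on the treated arrays than on the control arrays, whichever control was used, except LRIG1 with siGRB2 under the background correction described with its values. For ERRFI1 the levels (A_23_P46470, accession NM_018948, 1 spot) were 3.69 with Pre-miR negative control and 4.06 with siRNA negative control, against 3.44 for the Pre-miR-376c array and 3.39 for the siGRB2 array. From its own control the Pre-miR-376c array differed by -0.25 (84.1% of control) and the siGRB2 array by -0.67 (63.0%). Against the other control it was -0.62 and -0.30, so that siRNA negative control gave the larger difference for both treatments. With its scanner error of 0.20 on each, the smallest of the 4 differences was little larger than the error of the spot. Under the 8 other ways of processing the values with the own control, the difference stayed negative, between -0.29 and -0.14 with Pre-miR-376c and between -1.65 and -0.54 with siGRB2. The -1.65 came from the normexp background correction, in which the median over probes well above background on all arrays was 1.03. Without that setting the lowest value with siGRB2 was -0.95. Keeping outlier spots and detecting by another flag left the ERRFI1 values unchanged.

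LRIG1 was measured by 10 spots per array (A_23_P109636, accession NM_015541), which show the noise within an array only. The scanner error of its differences from the own control was 0.20, as for ERRFI1. The levels were -1.38 on the Pre-miR negative control array, -1.32 on that of siRNA negative control, -1.79 for Pre-miR-376c and -1.90 for siGRB2, so that both treated arrays were low. The SD between spots was 0.041 to 0.071. The brightest spot of the treated arrays was at -1.68 and the dimmest spot of the control arrays at -1.47, so the spots did not overlap. From the own control the difference was -0.41 ± 0.024 with Pre-miR-376c (SE between spots; 75.4% of control) and -0.58 ± 0.026 with siGRB2 (66.9%). From the other control it was -0.46 and -0.52. The negative controls differed by 0.06, and the treated arrays by -0.12. The negative direction turned under the normexp background correction for siGRB2, which gave 0.91, a setting in which the median of all probes was 1.03. Without the spots of high local background that entered that correction, the lowest and highest values for LRIG1 with siGRB2 over the remaining settings were -0.86 and -0.52.

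The LRIG1 and ERRFI1 differences were also set against those of all probes. For LRIG1, 20.5% of the probes well above background on all 4 arrays differed by at least as much between Pre-miR-376c and its control, 32.5% did between siGRB2 and its control, 7.90% did between siGRB2 and Pre-miR negative control, and 37.2% did between Pre-miR-376c and siRNA negative control. For ERRFI1 the shares were 41.1%, 25.6%, 25.9% and 23.6% in the same order.

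Set over the members, 8 of the 11 probes were well above background on all 4 arrays. Of these, 4 were lower on both treated arrays than on both controls (the NM_201283 probe of EGFR, the NM_001005915 probe of ERBB3, ERRFI1 and LRIG1), beside 13.6% of all 21239 probes. In 1 probe (ERBB3 A_23_P349416) both treated arrays were higher, beside 21.3% of all probes, and in 3 the arrays overlapped. Both ERBB3 orders rested on gaps of 0.06 and 0.07 between a treated and a control array, under the scanner error of 0.20. With the normexp background correction LRIG1 and both ERBB3 probes overlapped and ERBB2 was lower on both treated arrays. ERBB2 also joined the lower probes when the percentile was taken over probes well above background on all arrays, as EGFR A_23_P215790 did with the median shift. The NM_201283 probe of EGFR and ERRFI1 were lower on both treated arrays under each of the 8 other settings of processing. Among these settings, keeping outlier spots and detecting by another flag left the values of both probes unchanged, so they add no check. The median range over the arrays was 0.57 for these 8 probes and 0.56 for all, and 2 of the 8 had a range of at least 1, where 14.3% of all probes did.

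With Pre-miR-376c against Pre-miR negative control, none of the 9 members tested differed at least 2-fold, where 3.04% of the 24406 probes tested did. A probe was tested when it was well above background on at least 1 of both arrays. Of these members 8 were lower and 1 was higher, and their median log2 difference was -0.41, beside -0.04 for all probes tested. With siGRB2 against siRNA negative control, 1 of 8 differed at least 2-fold, where 9.81% of 23382 probes did. It was higher, as were 6.7% of all probes. Here 6 were lower and 2 were higher, with a median of -0.25 beside 0.18 for all probes. Without the siRNA negative control array, that is with siGRB2 against Pre-miR negative control, none of 9 passed 2-fold (2.94% of all probes), 7 were lower, and the median was -0.44 beside 0.03. These counts and medians mix genes with several probes and genes with 1. The share of all probes that were lower in each pair was not counted.

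The treated arrays were close to each other. Between siGRB2 and Pre-miR-376c the log2 differences of the 8 probes lay between -0.28 (EGFR A_23_P215790) and 0.18 (EGFR A_33_P3351955), and none passed 2-fold, where 2.89% of all probes did. Between the negative controls, 1 of 9 probes passed 2-fold (9.16% of all probes), and between Pre-miR-376c and siRNA negative control 1 of 8 did (7.26%). These comparisons share arrays and are not independent of each other.

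The 3 EGFR probes were closer together where the siRNA negative control array was absent, which was not so in every pair for ERBB3. For EGFR the 3 probes spanned 0.32 in the comparison of Pre-miR-376c with its control and 0.25 between siGRB2 and Pre-miR negative control. The span was 1.39 between siGRB2 and siRNA negative control, and 1.14 between the negative controls. For ERBB3, the 2 probes well above background on all arrays were 0.61 apart with Pre-miR-376c and 1.09 apart with siGRB2, each against its own control, and 0.56 apart between the negative controls.

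For probes with a range of at least 1, the genes with the most similar 4 values were looked up, each profile being centred on its own mean. Nearest to EGFR A_33_P3351955 were STK38, FXR2 and TAAR2, with root mean square differences of 0.021, 0.023 and 0.026 (log2), and 302 of 21238 probes lay within 0.1. Nearest to ERBB3 A_23_P349416 were GLMP, PCGF3 and GRID2IP, with 0.0031, 0.016 and 0.018, and 332 probes lay within 0.1. All these profiles share the low siRNA negative control array.

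The other genes of the pathway were counted in lists. Of 11 ERBB ligand genes, 6 had a probe well above background on all 4 arrays, and EPGN, NRG3 and NRG4 had none on any array. No ligand probe passed 2-fold with Pre-miR-376c against its control (10 tested, median 0.12), where 3.04% of all probes did and the median was -0.04. With siGRB2 against its control, 2 of 10 were lower with signal on both arrays, where 3.11% of all probes were lower. They were EREG (epiregulin), with a log2 difference of -1.35, and AREG (amphiregulin) A_33_P3419190, with -1.07. Against Pre-miR negative control the differences with siGRB2 were -0.60 for EREG and -0.38 for this AREG probe, both short of 2-fold. NRG2 was higher with siGRB2 by a bound, being well above background on that array alone. NRG1, a ligand of ERBB3 and ERBB4, had differences of 0.80 and 0.72 (its 2 probes) from the own control for Pre-miR-376c, while those for siGRB2 were 0.61 and 0.38. Both its probes were higher on the treated arrays (-1.91 to -1.70) than on the controls (-2.57 to -2.27). The same order held for 21.3% of all probes well above background on all 4 arrays.

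Of the 16 probes for 12 adaptor and relay genes, none passed 2-fold with Pre-miR-376c against its control, where 3.04% of all probes did. The median of the 16 probes was -0.31, beside -0.04 for all probes. From siRNA negative control it was 0.16, beside 0.10. With siGRB2 against siRNA negative control 1 of 16 passed 2-fold, beside 9.81% of all probes. This was a probe of SHC1 (A_24_P68585), an adaptor that links receptors to GRB2. It differed by 1.33 there and by 0.15 against Pre-miR negative control, while the other SHC1 probe differed by -0.03 and 0.19. GRB2 itself differed by -0.55 with each treatment from the own control. Against the other control it differed by -1.27 for siGRB2 but by 0.17 for Pre-miR-376c, and the negative controls differed by -0.72, more than either treatment from its own control. Of 35 probes for 27 other receptor regulators, none passed 2-fold with Pre-miR-376c against its control (33 tested, beside 3.04% of all probes). The median was -0.05, beside -0.04 for all probes. With siGRB2 against its control 2 of 32 passed, again beside 9.81% of all probes. EPS15, an endocytic adaptor of EGFR, differed by -1.11, and CBLB, a ubiquitin ligase, was higher by a bound of 1.44 with A_23_P29830. Against Pre-miR negative control these differed by -0.21 and -0.23. The other LRIG genes did not follow LRIG1. LRIG2 differed by -0.05 for Pre-miR-376c but 0.20 for siGRB2, and LRIG3 by 0.72 and -0.11, each against the own control.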

How the data were processed

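RNA (200 ng) from each of the 4 transfections was Cy3-labelled, and each sample had 1 human 44 K array to itself. The authors deposited scanner files with an intensity per spot from Agilent Feature Extraction (10.7.3.1, per the file headers), background-corrected and not scaled between arrays, and a table of log2 values from GeneSpring GX, in which each array had been shifted to its 75th percentile. The design names build hg19, so accessions were paired with RefSeq symbols (GRCh38.p14) for names only, and 25422 of 34127 probes were named. The log2 processed intensity was shifted to the 75th percentile over non-control spots in numpy (2.4.6) and pandas (2.3.3) under Python (3.11.15). Spots with an outlier flag (289 to 329 per array) were left out and spots of 1 probe averaged. A probe counted as above background when more than 0.5 of its spots were flagged so. No spot was saturated. With 1 array per condition no test was made, and a 2-fold limit was used as in the study's methods. Quantile normalization and normexp (offset 50) used R (4.3.3) and limma (3.58.1). The comparison step was tested on simulated data with less noise than the real pairs and larger changes than any member difference. That checks the code and not the precision of these values. The members, gene lists and rules were chosen with earlier results of these data known. The genes named were all members, GRB2, listed genes past 2-fold with signal on both arrays, and the 3 nearest genes of each member probe with a range of at least 1. CBLB, NRG1, NRG2, LRIG2, LRIG3 and listed genes not above background were named after their values were seen.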

Additional observations from a re-analysis of the deposited data

How the results depend on the processing

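No paired analysis was possible because a condition here is a single array. Over 10 alternatives, 160 of 168 member differences kept their direction. Of these, the 17 with detection by another flag used the same levels and could not turn. Keeping outlier spots shifted none of 17 by more than 0.0066. The other negative control turned 4 of 16 and the mean of both turned 1, the median shift turned 1 of 17, and the normexp correction, in which 7 spots of high local background entered the fit for siGRB2, turned 2. With these spots left out, an alternative chosen after seeing the data, none of 17 turned. The median shift moved the median of probes above background on all arrays from -0.03 to 0.09 with Pre-miR-376c and from 0.15 to -0.13 with siGRB2. The number of members at least 2-fold apart with Pre-miR-376c, 0, became 1 with the other negative control and 1 with a 1.5-fold limit. With siGRB2 it was 1. It became 0 with the median shift, the deposited log2 values, the normexp correction without those spots, the other negative control, the mean of both controls and a 3-fold limit, 2 when detection used the scanner software's flag for a positive and significant signal, and 3 with the planned normexp correction and with a 1.5-fold limit. Membership by a gene name column was not run, since the scanner files used here have no such column. The cause of these shifts was not tested. Signal over background limits ERBB4 and the ERBB3 probe A_33_P3280471.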
